A study of Mus musculus with 15 samples.

Results

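Rbm9, Rbm10, Slu7 and Lsm6 are 4 genes of the splicing machinery whose own transcripts had changed cassette exons in forelimbs of Mbnl3 mutant mouse embryos. They were chosen by their symbols in the authors' deposited table of changed exons, so their changes in inclusion were selected on that contrast and are described here without a test. They gave 6 of the 98 events and 4 of the 84 genes of that table, or 5 of its 88 distinct event spans, since the Slu7 events share a span. A cassette exon is an exon that is either joined into the transcript or skipped, and an event span runs from its upstream to its downstream neighbour exon, both included. Tags from HITS-CLIP for Mbnl3 in these spans were not used to choose the genes.

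Forelimbs came from embryos at day 15, female per the labels of the RNA-seq samples, that were homozygous for the Mbnl3 ΔE2 allele, titled Mbnl3 KO in the labels, or wild type (WT), on a BL6 background for CLIP. RNA-seq was done on 3 ΔE2 and 3 WT animals, and CLIP on 3 libraries per genotype, each from 4 pooled forelimbs of 2 embryos. A further CLIP set came from C2C12, a mouse myoblast line grown in 20% serum, for which the authors combined 3 libraries. The header of the exon table writes Mbnl2 for its mutant, against Mbnl3 in the labels, so its mutant columns are called the knockout columns. Mbnl3 has no row in the table, and no level of any gene was measured here, so the targeted gene could not be checked. The deposited names of the ΔE2 CLIP libraries carry another number than those of the WT libraries, which no label explains, and what it stands for cannot be told apart from genotype. Of the tissue markers looked for, the cartilage genes Col2a1, Acan and Col11a2 have events in the table, and no muscle or skin marker on the list has one. All 4 events of these cartilage genes had higher inclusion in the knockout, by 12.7 to 29.3 percentage points, and whether the makeup of the tissue plays a part in the changes below was not tested.

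Pre-messenger RNA is spliced by the spliceosome, built from small nuclear ribonucleoproteins and many accessory proteins. Muscleblind proteins bind RNA at YGCY-like motifs and regulate exon choice, as do the Rbfox proteins, which bind the GCAUG motif. Many splicing factors have alternative exons in their own transcripts, and several regulate their own exons. Rbm9, now named Rbfox2, encodes an Rbfox protein that acts in muscle, brain and other tissues. Rbm10 encodes an RNA-binding protein that promotes skipping of exons. Slu7 encodes a factor of the second catalytic step of splicing that helps select the 3′ splice site. Lsm6 encodes a subunit of the Lsm ring that binds U6 small nuclear RNA and, in another assembly, takes part in messenger RNA decay.

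The CLIP libraries were not all separate sets of molecules, which touches each CLIP value below. The ΔE2 libraries held 67279, 40531 and 59115 tags, and the WT libraries 35413, 74123 and 124309 tags. ΔE2 replicates 2 and 3 had 33916 molecules of the same position and barcode in common, 83.7% of the tags of replicate 2, and were counted as 1 library of 65730 tags. ΔE2 replicate 1 shared 20258 molecules with WT replicate 3, or 30.1% of its tags and 59.2% of its reads. It also shared 10015 molecules with WT replicate 2. WT replicates 2 and 3 shared 24005 molecules, and WT replicate 1 shared 29.8% of its tags with WT replicate 2 and 31.3% with WT replicate 3, so the WT libraries are not separate sets either. Why libraries of different genotypes share molecules was not tested, and values with each shared molecule given to 1 library stand beside the Rbm9 results.

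Lower inclusion in the knockout than in the WT columns was listed for 5 of the 6 events in the authors' deposited table, and higher inclusion for 1. Over the whole table all events were called (100% of 98 events at an adjusted p at or under 0.05), 45.9% lower and 54.1% higher in the knockout. The genes were taken from this table, so nothing is read from that comparison. Inclusion is the mean of the tags on the 2 junctions of the exon, divided by that mean plus the tags on the skipping junction. The median size of change was 16.3 percentage points in the 6 events and 15.5 in all 98, where changes ran from 10.1 to 89.3. The knockout columns held more tags, with a median of 1.67 times the junction tags of the WT columns per event, so a tag count is read against that ratio. The table holds 1 total per genotype, so the spread between animals is not known and the authors' p-values do not contain it.

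**Figure D1:**
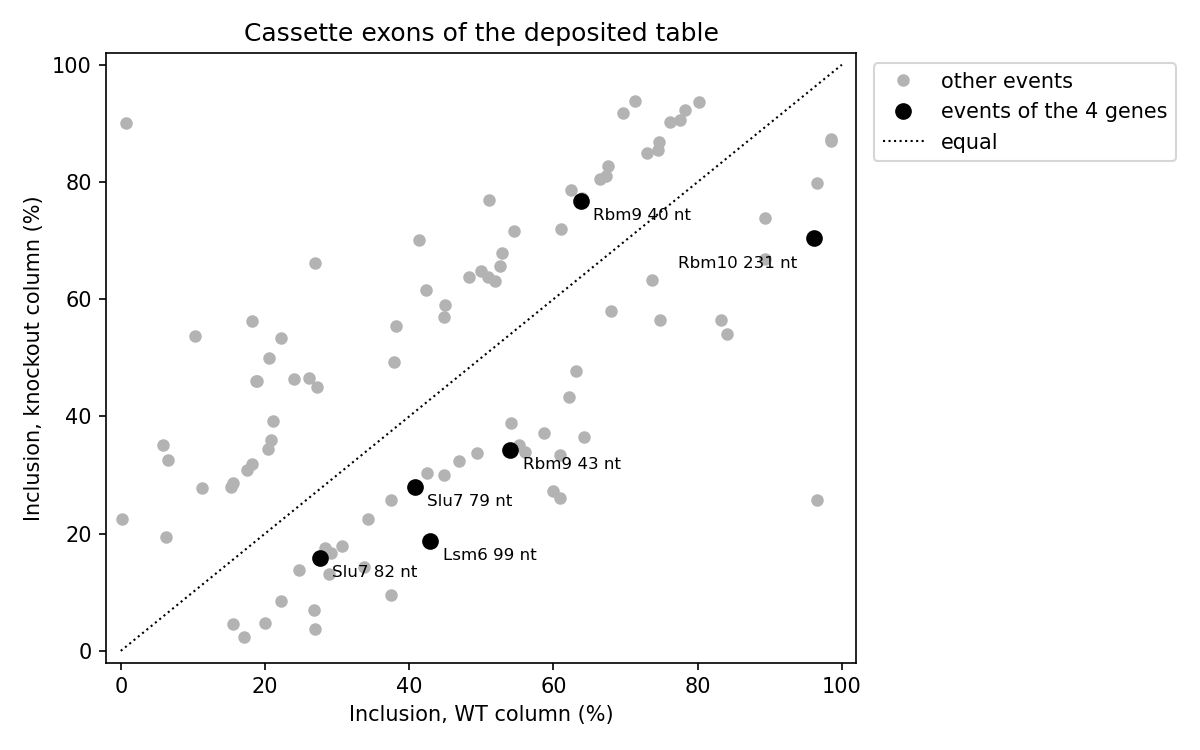
Inclusion in the knockout columns (y axis, %) against the WT columns (x axis, %) for the 98 events, with the 6 events of Rbm9, Rbm10, Slu7 and Lsm6 in black and the dotted line marking equal inclusion. The 40-nt exon of Rbm9 lies above the line, at 76.7% in the knockout and 63.8% in WT, and the other 5 black points lie below it.

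Rbm9 had a pair of neighbouring alternative exons with opposite entries in the table. Its events lie at chr15:76916497-76928501 for a 43-nt exon and chr15:76922242-76928501 for a 40-nt exon (mm9, minus strand). The 43-nt exon ends the span of the 40-nt event, which places the exons themselves at 76922242 to 76922284 and at 76924881 to 76924920, to within 1 nt. Exons of these sizes are known as the muscle and the brain exon of this gene, and they are usually used in place of each other. Neither length is a multiple of 3, and both leave a remainder of 1. A transcript with the 40-nt exon in place of the 43-nt exon therefore keeps the same frame, whereas one without both does not.

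Inclusion of the 43-nt exon was 34.3% in the knockout and 54.0% in WT, a difference of -19.7 points (95% interval -29.2 to -9.66, counting error only). The authors' deposited table gave it an adjusted p of 0.000432. The junction from the upstream exon to the 43-nt exon had 70.8 tags in the knockout and 73.4 in WT. The junction that skips from the upstream to the downstream exon had 197 tags in the knockout and 63.9 in WT, 3.08 times as many. Tags on the junction from the upstream exon thus stood at 0.966 times the WT count, below the median ratio of the table. All tags into the 43-nt exon, those from the 40-nt exon included, stood at 1.11 times, and tags on its downstream junction at 1.75 times.

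The 40-nt exon had an inclusion of 76.7% in the knockout and 63.8% in WT, a difference of 12.96 points (95% interval 4.69 to 20.9, counting error only). The authors' deposited table gave it an adjusted p of 0.0246. Its skipping junction is the same junction that leads into the 43-nt exon in the other event, with the same 70.8 tags in the knockout and 73.4 in WT, so these events are not independent. The event does not contain the transcripts that pass over both exons.

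All tags that left the upstream exon could be divided between the 3 routes in the table. Their sum was a whole number in each genotype, 713 tags in the knockout and 385 in WT, although each route has a fractional count. The route to the 40-nt exon took 62.4% of tags in the knockout (95% Wilson interval 58.8 to 65.9) and 64.3% in WT (59.5 to 69.0). That is a difference of -1.91 points (95% interval -7.87 to 4.01), in the other direction from the table's own value for this exon. The route to the 43-nt exon took 9.94% in the knockout (7.97 to 12.4) and 19.1% in WT (15.4 to 23.2), a difference of -9.12 points (-13.7 to -4.67). The route past both took 27.6% in the knockout (24.5 to 31.0) and 16.6% in WT (13.2 to 20.7), a difference of 11.0 points (5.88 to 15.8). Measured from the upstream exon, the share of the 40-nt exon differed by less than its counting error, and the 43-nt exon and the route without either exon differed in opposite directions.

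**Figure D2:**
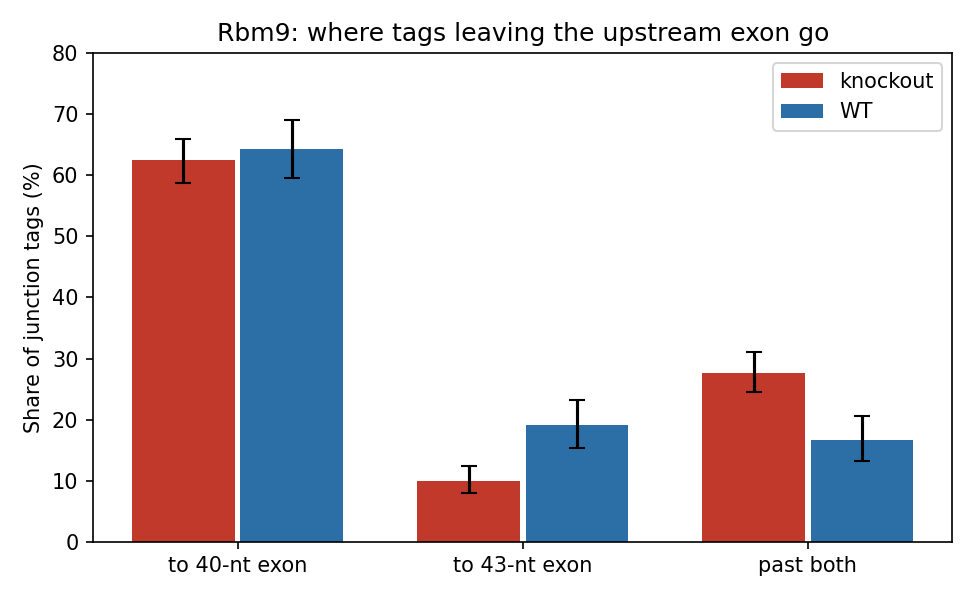
Share of the tags leaving the upstream exon of Rbm9 (y axis, %) on each of 3 routes, for the knockout and WT columns, with 95% Wilson intervals that cover counting error only. Bars for the 40-nt exon stand at 62.4% in the knockout and 64.3% in WT, those for the 43-nt exon at 9.94% in the knockout and 19.1% in WT, and those past both exons at 27.6% in the knockout and 16.6% in WT.

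The exons were also joined to each other in a small share of transcripts. The junction from the 40-nt to the 43-nt exon had 21.8 tags in the knockout and 10.4 in WT. That was 4.89% of the tags that entered the 40-nt exon in the knockout and 4.198% in WT. Of the tags that entered the 43-nt exon, 23.5% in the knockout and 12.4% in WT came from the 40-nt exon. Tags leaving the 43-nt exon numbered 135 in the knockout and 76.8 in WT, while 92.6 in the knockout and 83.8 in WT entered it by both routes. By the downstream junction alone the difference in inclusion of this exon was -13.98 points, and by the upstream junction alone -27.0 points.

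Rbm10 had a 231-nt exon in an event at chrX:20212857-20216627 (mm9, plus strand). Its length is a multiple of 3. Inclusion was 70.4% in the knockout and 96.2% in WT, a difference of -25.8 points (95% interval -36.9 to -8.33, counting error only). The authors' deposited table gave an adjusted p of 0.0205. The skipping junction had 24 tags in the knockout and 1 in WT. The inclusion junctions had 66 and 48 tags in the knockout and 25 on each in WT. Tags inside the exon numbered 195 in the knockout and 118 in WT, a ratio of 1.65, close to the table's median ratio. With all isoform tags in place of junctions, inclusion was 92.8% in the knockout and 99.4% in WT, a difference of -6.62 points. The single skipping tag in WT leaves its share wide, at 3.85% of tags from the upstream exon (95% Wilson interval 0.682 to 18.9), against 26.7% in the knockout (18.6 to 36.6).

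Slu7 had the same exon listed as an 82-nt and a 79-nt form, which differ by 3 nt at the exon's 3′ end and keep the same frame. Both lie at chr11:43247254-43251031 (mm9, plus strand), and neither length is a multiple of 3. Inclusion of the 82-nt form was 15.9% in the knockout and 27.6% in WT (authors' deposited table, adjusted p = 0.0348). That of the 79-nt form was 27.9% in the knockout and 40.8% in WT (authors' deposited table, adjusted p = 0.0423). The differences were -11.7 points (95% interval -21.6 to -2.81) and -12.8 points (-22.2 to -2.89).

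These entries describe a single change, because they share the upstream inclusion junction and the skipping junction. The shared inclusion junction had 55.2 tags in the knockout and 53.8 in WT, and the skipping junction 176 in the knockout and 86.2 in WT. Of the 231 tags in the knockout that left the upstream exon, 23.9% entered the exon (95% Wilson interval 18.8 to 29.7), against 38.4% of 140 in WT (30.9 to 46.8). The choice between the forms differed by less than its counting error: the 79-nt form took 88.0% of tags leaving the exon in the knockout (79.8 to 93.2) and 84.5% in WT (74.7 to 90.9).

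Lsm6 had a 99-nt exon, a multiple of 3, in an event at chr8:81336875-81345000 (mm9, minus strand). Inclusion was 18.7% in the knockout and 42.9% in WT, a difference of -24.2 points (95% interval -34.5 to -13.6, counting error only). Its adjusted p in the authors' deposited table, 2.07e-05, was the smallest of the 6 events. The skipping junction had 185 tags in the knockout and 61.4 in WT. The inclusion junctions were far from equal: the upstream one had 5.96 tags in the knockout and 4.63 in WT, and the downstream one 78.96 in the knockout and 87.6 in WT. By the upstream junction alone inclusion was 3.12% in the knockout and 7.02% in WT, a difference whose interval reached past 0 (-13.6 to 1.13 points). By the downstream junction alone it was 29.9% in the knockout and 58.8% in WT. The direction was the same by each measure, and the level depended on which junction was read.

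**Figure D3:**
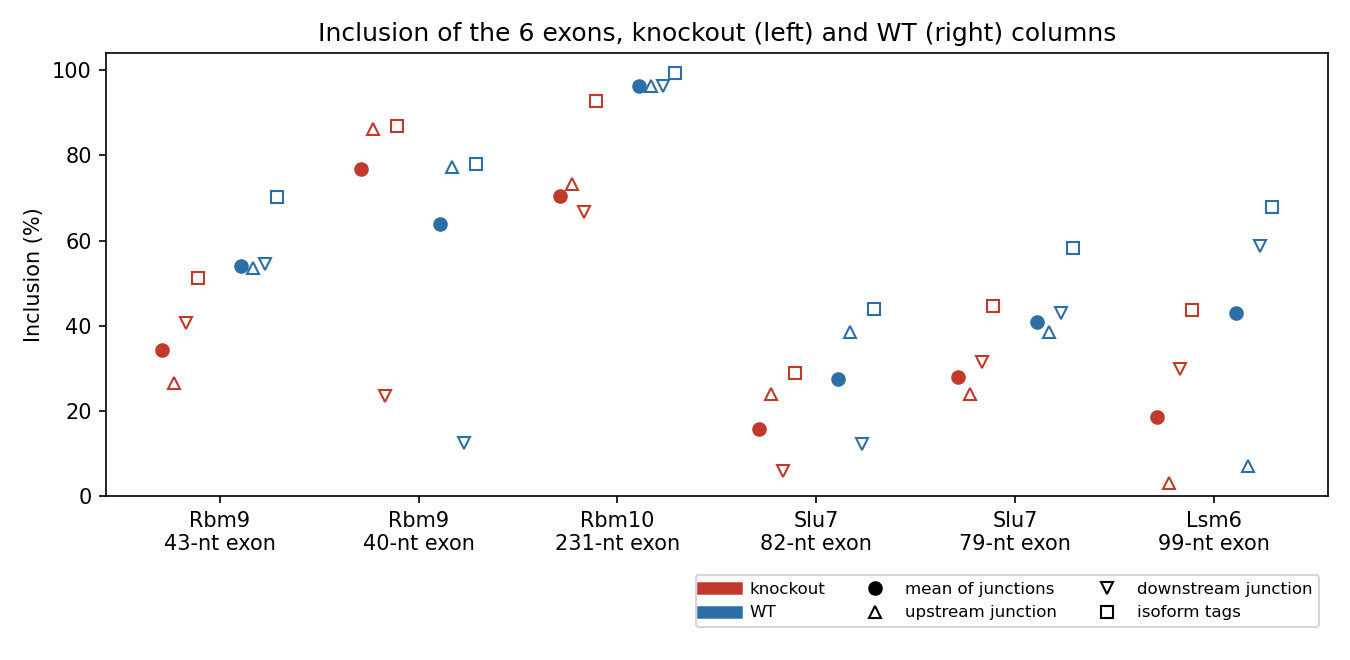
Inclusion (y axis, %) of the 6 exons in the knockout (left, red) and WT (right, blue) columns, by the mean of both junctions (filled circles), by each junction alone (triangles) and by isoform tags (squares). For each measure the knockout value lies below the WT value in 5 exons and above it for the 40-nt exon of Rbm9, while the level of the Lsm6 exon in WT runs from 7.02% to 67.8%.

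In each event other than that of the 40-nt exon of Rbm9, the skipping junction had the higher ratio of knockout to WT tags. Tags that passed over the exon stood in the knockout at 3.08 times the WT count for both Rbm9 exons together, at 2.04 times for Slu7 and at 3.02 times for Lsm6. Tags from the upstream exon into the cassette exon stood at 0.966 times for the 43-nt exon of Rbm9, 1.03 times for Slu7 and 1.29 times for Lsm6. The Lsm6 value rests on 5.96 tags in the knockout and 4.63 in WT. On the downstream junction the ratio was 1.75 for the 43-nt exon of Rbm9 and 0.901 for Lsm6. For Slu7 it was 0.931 in the 82-nt form and 1.25 in the 79-nt form. Rbm10 had 2.64 times as many tags into the exon in the knockout, beside 24 tags past it in the knockout and 1 in WT. Of the 6 exon forms, 2 had a length divisible by 3, against 60.2% of all 98 events.

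The table also held events of other splicing genes. It lists only called events, so the share of all tested genes that had one is not known, and the count below is not read against it. Of 275 symbols on a list of spliceosome components and splicing regulators, 7 had events, and these comprise the 4 genes above and 3 others. Among the others, Acin1, which encodes a component of an exon junction-associated complex, had a 65-nt exon at 46.4% in the knockout and 24.04% in WT. Mbnl1, the muscleblind gene that acts in adult muscle, had a 223-nt exon at 63.7% in the knockout and 48.3% in WT. Its junctions were very unequal, and by the downstream junction alone, with 3.03 tags in the knockout and 3.04 in WT, the direction turned, to 5.61% in the knockout and 6.85% in WT. U2af2, the large subunit of the factor that binds the polypyrimidine tract, had a 64-nt exon at 13.8% in the knockout and 24.7% in WT. Over the list, by the mean of the junctions, 3 events had higher and 6 lower inclusion in the knockout. All were calls in the authors' deposited table. Of these, 1 higher and 5 lower events belong to the 4 genes chosen above, and the lower ones include both Slu7 forms, a single change. In the 3 other genes, 2 events were higher and 1 lower. Among all 98 events, 54.1% were higher and 45.9% lower in the knockout, so no direction for splicing genes is read from these counts. The 3 other genes had a median size of change of 15.4 points.

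CLIP tags were then counted in the event spans, on the strand of the gene. Values are in CPM, the tags of a span per 1000000 tags of the library. The comparison of ΔE2 with WT asked whether CLIP tags in these transcripts differed between the genotypes. Which protein the tags of the ΔE2 libraries came from was not tested, so equal tags do not show equal binding by Mbnl3. Of the 88 distinct spans in the table, 67 had at least 1 forelimb tag, and the largest forelimb count in any span was 81. Tags on the opposite strand were few, with 0 to 2 per library over all spans against 46 to 245 on the strand of the gene, and there were none in the spans of the 4 genes.

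Rbm9 had the third highest WT tag count of all spans, and its tags did not differ between genotypes beyond their spread. The span of the 43-nt event had 74.3 and 106 CPM in the ΔE2 libraries, from 5 and 7 tags. It had 84.7, 94.4 and 96.5 CPM in the WT libraries, from 3, 7 and 12 tags. The ΔE2 values lay on either side of all WT values. The means were 90.4 ± 22.8 CPM in ΔE2 (SD, n = 2) and 91.9 ± 6.31 CPM in WT (SD, n = 3), and a two-sided exact permutation test gave p = 0.9 (adjusted over all spans with a tag, 1). The ratio of pooled tags, ΔE2 over WT, was 0.959 with a 95% exact interval of 0.433 to 2.02, which covers counting error only and treats tags of shared molecules as separate. Changes within that interval were not detectable at this depth. As labelled, before the merge, the 3 ΔE2 libraries had 74.3, 49.3 and 118 CPM. The sign of the difference, -1.49 CPM for ΔE2 minus WT, turned with single libraries: it was 14.6 CPM without ΔE2 replicate 1, 4.47 without ΔE2 replicate 2, 0.831 without WT replicate 3, and -30.1 without ΔE2 replicate 3. It was 1.25 CPM when each shared molecule counted only for the library holding most of its reads. Without ΔE2 replicate 3 the groups did not overlap, at 61.8 CPM in ΔE2 and 91.9 CPM in WT. The exact permutation test gave p = 0.1 there (adjusted, 0.733), the smallest that 2 against 3 libraries can give.

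The shorter span of the 40-nt event lies inside the longer one and shares its tags. It had 74.3 and 76.1 CPM in the ΔE2 libraries and 56.5, 80.9 and 64.4 CPM in the WT libraries, so that both ΔE2 values lay within the WT range. The means were 75.2 ± 1.24 CPM in ΔE2 (SD, n = 2) and 67.3 ± 12.5 CPM in WT (SD, n = 3), and the exact permutation test gave p = 0.5 (adjusted, 1). The pooled ratio, ΔE2 over WT, was 1.10 (95% exact interval 0.446 to 2.58). The difference of 7.93 CPM, ΔE2 minus WT, became -5.43 CPM without ΔE2 replicate 3, 2.54 CPM without WT replicate 1 and 14.8 CPM without WT replicate 2. It was 14.7 CPM when each shared molecule counted for 1 library, and 15.4 CPM with WT replicates 2 and 3 as 1 library, where the groups did not overlap (exact permutation p = 0.333, the smallest that 2 against 2 libraries can give).

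Rbm10, Slu7 and Lsm6 had almost no forelimb tags. Rbm10 had 1 tag in each ΔE2 library, or 14.9 and 15.2 CPM, and 0 tags in each of the 3 WT libraries. The groups did not overlap (exact permutation p = 0.1, adjusted 0.744), but each ΔE2 value is 1 tag, and both groups are under the 3 counts that a count of 0 allows. Values of ΔE2 and WT did not overlap in 20.9% of the 67 spans with a tag, and ΔE2 was the higher in 14.9% of them. Slu7 and Lsm6 had 0 tags in all 6 libraries, where 3 counts, the limit that a count of 0 allows, are 44.6 to 74.0 CPM in a ΔE2 library and 24.1 to 84.7 CPM in a WT library. Like them, 21 of the 88 spans had no forelimb tag. With 2 against 3 libraries the smallest p that the permutation test can give is 0.1.

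A fit across all spans with edgeR's quasi-likelihood test could be made for only 2 spans past the low-count filter, neither of them in these genes, and it called 0% of them (0 with an unadjusted p under 0.05, and 0 calls with DESeq2). Without the filter it called 0% of 67 spans (3 had an unadjusted p under 0.05). There the log2 fold of ΔE2 over WT was -0.27 for the longer Rbm9 span (edgeR adjusted p = 0.915) and -0.07 for the shorter (edgeR adjusted p = 0.984). For the Rbm10 span, with 1 tag in each ΔE2 library and none in WT, the log2 fold was 3.18 (edgeR adjusted p = 0.805). The standard errors implied by the unadjusted p-values were 0.50 and 0.57 for the Rbm9 spans and 2.03 for Rbm10.

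**Figure D4:**
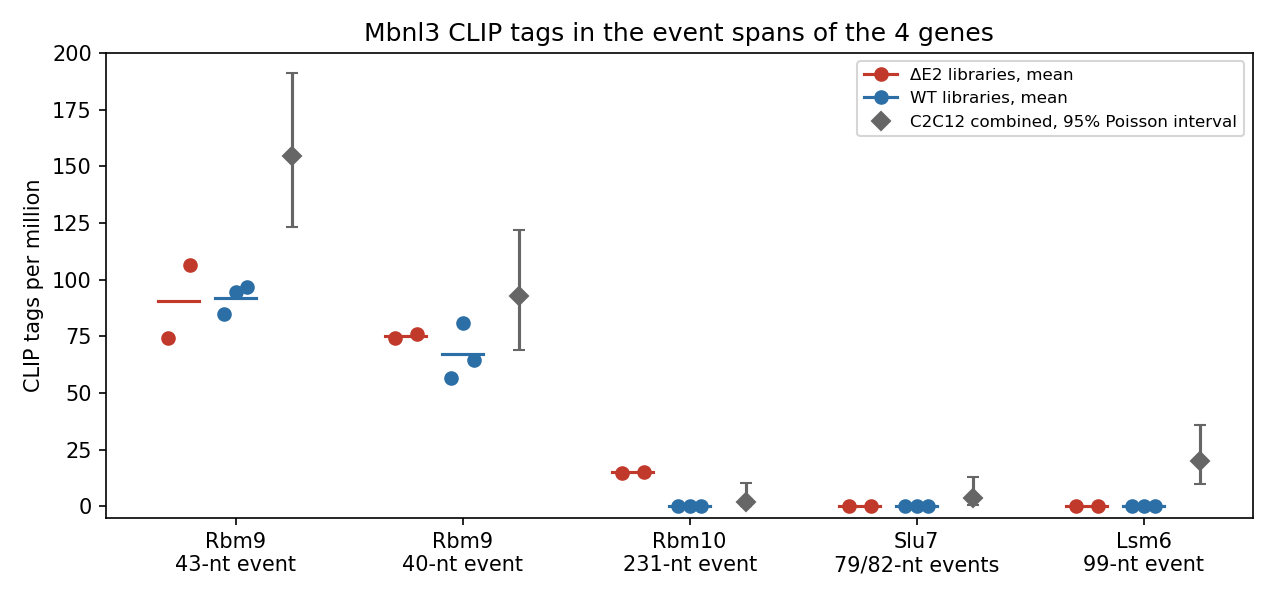
CLIP tags in CPM (y axis) in the 5 event spans, with 1 red point per ΔE2 library (n = 2) and 1 blue point per WT library (n = 3), lines at the means, and grey diamonds for the combined C2C12 set with 95% Poisson intervals for counting error. The ΔE2 and WT points overlap in both Rbm9 spans, and only C2C12 has tags for Slu7 and Lsm6.

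The Rbm9 tags were placed against the exons. Over all forelimb libraries the longer span held 26 distinct molecules, 12 found in ΔE2, 17 in WT and 3 in both. None overlapped the 40-nt or the 43-nt exon. Within 1000 nt of the 40-nt exon lay 9 of the 12 ΔE2 molecules (75.0%, 95% Wilson interval 46.8 to 91.1) and 7 of the 17 WT molecules (41.2%, 21.6 to 64.0). On its upstream side were 7 ΔE2 and 3 WT molecules, and on its downstream side 2 ΔE2 and 4 WT molecules. The 4 WT molecules downstream formed a stack that began 186 to 190 nt past the exon. The molecule at 186 was listed in all 3 WT libraries, with 1, 1 and 6 reads, so its tags are not independent. A molecule at 190 was listed in ΔE2 replicate 1 with 2 reads, in WT replicate 2 with 2614 and in WT replicate 3 with 4. The other 2 were found in WT replicate 1 or WT replicate 2 alone, and WT replicate 3 had no stack molecule of its own.

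Upstream of the 40-nt exon, tags gathered between positions -606 and -509, counted in nt from the exon with negative values before it. There ΔE2 replicate 1 had 2 tags, ΔE2 replicate 2 had 2 and ΔE2 replicate 3 had 3, of which 2 molecules are common to the last pair of libraries. WT replicate 2 had 1 tag there and WT replicate 3 had 2, while WT replicate 1 had none. The WT molecules of this stretch were also listed in a ΔE2 library: that at -516 had 1 read in ΔE2 replicate 1 and 121 in WT replicate 3, and that at -585 had 922 reads in ΔE2 replicate 3 and 1 in WT replicate 3. A further 2 tags, at -49 and -76, were found in ΔE2 replicate 1. The 43-nt exon had no forelimb molecule within 250 nt, and 3 WT and 0 ΔE2 molecules within 1000 nt. These positions were noticed in the data and rest on a few molecules, so they carry no test.

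**Figure D5:**
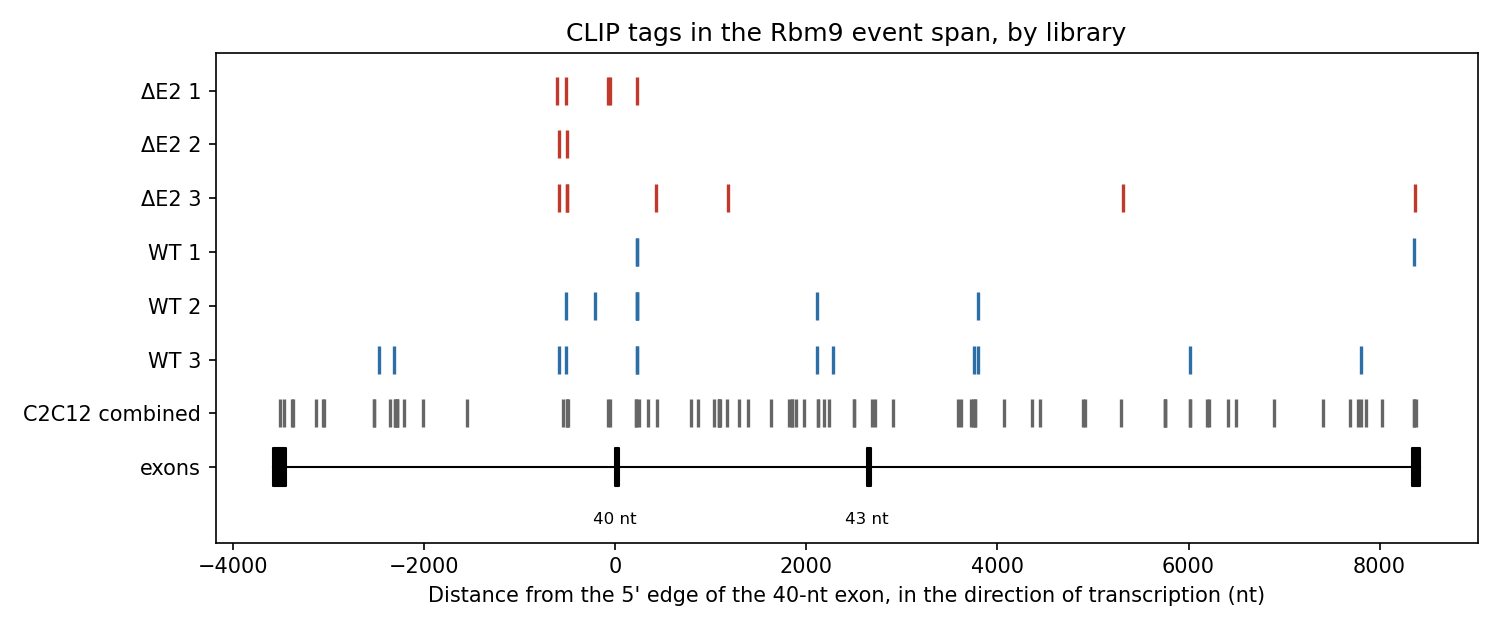
Position of each CLIP tag in the longer Rbm9 span (x axis, nt from the 5′ edge of the 40-nt exon in the direction of transcription), with 1 row per forelimb library, the combined C2C12 set and the exons as black boxes. Some ΔE2 tags gather upstream of the 40-nt exon, and some WT tags stack just downstream of it, in part as molecules that the WT libraries share. Both places also hold tags of the other genotype, some of them shared molecules. C2C12 tags are spread along the introns and lie in both places too.

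The same spans were set beside C2C12 myoblasts, whose combined set held 550124 tags. WT forelimb and C2C12 tags differ in length, 19 to 38 nt and 26 to 30 nt, and the C2C12 set has no replicates, so the values carry 95% Poisson intervals for counting error and no test. The longer Rbm9 span had 94.1 CPM in pooled WT forelimb (59.0 to 142) from 22 tags and 155 CPM in C2C12 (123 to 191) from 85 tags. The shorter had 68.4 CPM in WT forelimb (39.1 to 111) and 92.7 CPM in C2C12 (69.0 to 122). The WT tags include molecules listed by several libraries, whereas C2C12 molecules were counted once. With WT molecules also counted once, WT had 87.4 CPM (50.9 to 139.9) from 17 tags in the longer span and 61.7 CPM (31.9 to 108) from 12 tags in the shorter. The longer span held the second highest C2C12 count of all 88 spans. Per 1000 nt of span it had 7.84 CPM in WT forelimb, against a median of 1.08 over all spans, and 12.9 CPM in C2C12, against a median of 1.69.

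C2C12 tags lay along both Rbm9 introns and the stretch between the exons. Of 85 molecules, 14 lay within 1000 nt of the 40-nt exon (16.5%, 95% Wilson interval 10.1 to 25.8). Around the 43-nt exon, 5 lay within 250 nt, including tags at 8 and 38 nt past it and at positions -109 and -111 before it. The stretch 176 to 205 nt past the 40-nt exon, where the WT stack lay, held 3 C2C12 molecules. Within 1000 nt upstream of that exon C2C12 had 6 molecules. They lay at -58, -79, -491, -503 and -545, over or beside the upstream tags of the forelimb libraries.

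Lsm6 had 0 tags in WT forelimb (95% Poisson interval 0 to 15.8 CPM) and 11 in C2C12, or 20.0 CPM (9.98 to 35.8), so that the intervals overlap. Of the 11, 10 lay downstream of the 99-nt exon and 1 upstream. The nearest began 380 to 537 nt past the exon, a range that reflects an exon position known only to within the length of its neighbours. Slu7 had 0 tags in WT forelimb and 2 in C2C12 (3.64 CPM, 0.440 to 13.1), and Rbm10 had 0 in WT forelimb and 1 in C2C12 (1.82 CPM, 0.0460 to 10.1). The Rbm10 tag of ΔE2 replicate 1, at 20216252 to 20216286, overlapped that of C2C12, at 20216264 to 20216293, and the other ΔE2 tag lay upstream of the exon. For Slu7 and Rbm10, too, the intervals of the sets overlap. Levels of these RNAs were not measured in either material, so fewer tags and less RNA cannot be told apart.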

How the data were processed

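Per the submitters' processing notes, Novoalign placed the HITS-CLIP tags on mm9 (no version stated), and TopHat 1.3.2 with Bowtie placed the RNA-seq reads. Per the file headers, the exon table gives estimated counts of tags for isoforms and junctions, summed to 1 total per genotype; a junction count was fractional (by over 0.001) in 95 of 98 events. The odds ratio, Fisher p-value and adjusted p-value in it are the authors' own. The authors' difference score, WT minus knockout, was recomputed from the junctions and is given here as knockout minus WT. Each line of the CLIP files is a tag with a 5-base barcode; the deposited score column was left unused and tags were counted here.

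A tag counted for a span when it overlapped it by at least 1 nt on its strand, and C2C12 molecules of the same position and barcode counted once. CPM values were compared by exact permutation. The fit across spans used edgeR 4.0.16 (R 4.3.3) with TMM scaling, filterByExpr (minimum count 10) and its quasi-likelihood test; calls had a Benjamini-Hochberg adjusted p of 0.05 or less. DESeq2 1.42.0 was an alternative. Replicates are labelled biological, and permutation p-values measure the spread between these libraries, which share molecules. The common dispersion of the edgeR fit, its estimate of spread beyond counting error, was 9.77e-05 with and without the filter. It had this same value in every edgeR run, so it is not read as a measured spread. The quasi-likelihood test adds a spread estimate of its own, and how far its p-values rest on counting error was not tested. Intervals (95%) cover counting error only, as amplified tags and the split of reads between isoforms add more. Inclusion intervals are Wilson, or Newcombe for differences, on counts rounded to whole numbers. Python 3.11.15, scipy 1.17.1 and matplotlib 3.10.9 were also used.

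The genes, lists and alternatives were chosen with earlier results of these data known. By rule, all events of the 4 genes are named, and up to 5 further genes of the splicing list, those with the widest changes. Events with the same span were counted once for CLIP. Exon sequences were not used here.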

Additional observations from a re-analysis of the deposited data

How the results depend on the processing

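The direction of the change in inclusion was the same for all 6 events under the 3 other measures, upstream junction, downstream junction and isoform tags. A pair of values left the interval of the value reported: Rbm10 with isoform tags (-6.62 points) and Lsm6 with the upstream junction alone (-3.90 points). The sign of the CLIP difference in the Rbm9 spans was not stable. For the longer span, ΔE2 minus WT was -1.49 CPM, against -11.2 with the 6 libraries as labelled, -9.002 with tags collapsed by position, -10.4 by 5′ end, -13385 with CPM over the tags in event spans (43651 in ΔE2 and 57036 in WT, groups not overlapping), 5.05 with WT replicates 2 and 3 counted as 1 library, 1.25 when a shared molecule counted only for the library holding most of its reads (an alternative chosen after seeing the data), and -30.1 to 14.6 with 1 library left out. For the shorter span it was 7.93 CPM, against -4789 with CPM over the tags in event spans, -0.138 with tags collapsed by 5′ end, 0.730 by position, 2.15 with the 6 libraries as labelled, 14.7 with shared molecules counted once, 15.4 with WT replicates 2 and 3 as 1 library, and a range of -5.43 to 14.8 with 1 library left out. The cause of these reversals was not tested. Rbm10 had no tag in any WT library, and Slu7 and Lsm6 had none in any forelimb library. No run could therefore reverse the Rbm10 difference or move those of Slu7 and Lsm6. The number of spans called was 0 under 15 of the 16 alternatives (DESeq2 included) and 1 in edgeR where TMM was replaced by library size, a span outside these genes. Only the fit without the filter, over 67 spans, held spans of Rbm9 and Rbm10. Every other alternative tested just 2 spans, none of them in these genes, so its count says nothing about the 4 genes. With the replicate number as a block over the 6 libraries as labelled, 0 spans were called. Deviations of same-numbered libraries over 23 spans had correlations of -0.114, -0.212 and -0.0158, against -0.110 to 0.219 for differently numbered ones. With few tags and shared molecules, these values cannot decide whether the numbers pair the libraries. The planned block on the CPM of single spans was not run. Values against C2C12 moved by less than their counting interval, also with WT molecules counted once (chosen after seeing the data). Forelimb depth limits the CLIP results: 3 tags in a library are 24.1 to 84.7 CPM.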
